A study of Rattus norvegicus with 4 samples.

Results

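Immediate early genes are the genes that a cell switches on first, without new protein synthesis, when it is stimulated, wounded or handled. A set of 38 of them, widely used to describe how cells respond both to activity and to enzymatic dissociation, was followed through single-cell RNA sequencing of rat dorsal root ganglia, which house the cell bodies of sensory neurons. The genes were taken by symbol alone, and 36 of the 38 symbols matched a row among the 25629 features of the files; Dusp1 and Junb were not analysed here. There were 4 libraries, namely Sham 1 and Sham 2 from sham rats and CPIP 1 and CPIP 2 from rats of the CPIP model, a name the labels leave unexplained and that stands for chronic post-ischaemia pain in the field. Each library held the L4-L6 ganglia of the ipsilateral side pooled from 3 rats, so single animals cannot be told apart, and the labels name 2 biological replicates per group and no strain, sex, age or time point. All 4 libraries had been digested at 37 °C with dispase (2 mg/mL), collagenase (1 mg/mL) and DNase (0.1 mg/mL) for 50 min, then with papain (1 mg/mL) for 10 min, and passed through a 40 µm strainer. Because both groups shared this digestion and no undigested tissue is part of the 4 libraries, what the digestion added and what the tissue held beforehand cannot be told apart at any level given here.

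The set spans several kinds of early gene. FOS and JUN proteins pair to form the transcription factor AP-1, EGR proteins are zinc-finger factors that bind GC-rich DNA, and NR4A proteins are orphan nuclear receptors; many of these genes are induced through serum response factor (SRF) and cyclic AMP response element binding protein (CREB) acting at preformed promoter sites. Other members end the response: DUSP phosphatases switch off MAP kinases, ZFP36 proteins destroy AU-rich messages, and BTG proteins restrain proliferation. In the ganglion, Fos, Egr1, Arc and Npas4 are commonly read as signs of neuronal firing, while Egr2 is a master regulator of myelination in Schwann cells and Jun is a regulator of the Schwann cell response to injury.

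Promoter sequences are printed for 4 members that carry, close to their start, a site of the kind through which CREB or SRF is known to act. RefSeq promoters of the rat build GRCr8 were matched by symbol for 26 of the 36 genes, and the 250 bases upstream of the start were searched. Fos and Jun were among the genes without a match. The files' own build is not given in the sources used here, and no coordinate of the files was used. Capitals mark a full cyclic AMP response element (Ier2) or a CArG box, the binding site of SRF (Egr2, Zfp36 and Srf), in the 150 bases up to the start of each gene.
Ier2, chr19:40399223-40399372, plus strand: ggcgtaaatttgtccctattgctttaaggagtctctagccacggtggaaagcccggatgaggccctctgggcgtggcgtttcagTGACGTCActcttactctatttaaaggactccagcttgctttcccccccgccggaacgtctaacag
Egr2, chr20:21054442-21054591, minus strand: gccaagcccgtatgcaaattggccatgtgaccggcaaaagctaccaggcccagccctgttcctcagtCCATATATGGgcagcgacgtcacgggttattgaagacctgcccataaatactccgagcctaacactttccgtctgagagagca
Zfp36, chr1:92799109-92799258, minus strand: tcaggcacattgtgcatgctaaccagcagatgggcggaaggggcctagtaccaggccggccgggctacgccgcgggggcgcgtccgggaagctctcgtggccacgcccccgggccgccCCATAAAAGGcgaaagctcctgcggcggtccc
Srf, chr9:21923926-21924075, plus strand: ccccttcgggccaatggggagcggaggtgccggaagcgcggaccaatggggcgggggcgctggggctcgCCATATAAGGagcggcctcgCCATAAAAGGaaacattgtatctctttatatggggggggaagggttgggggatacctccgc
The element TGACGTCA, searched on both strands, was found in 4 of the 26 promoters (15.4%) and in 1.70% of all 27457 RefSeq promoters. The shorter TGACG, which is contained in every full element, was found in 14 of 26 (53.8%) and in 19.0% of all. A CArG box was found in 5 of 26 (19.2%) and in 1.5% of all. Srf itself held 2 of them, as did Egr1, whose promoter is not printed. Most of the 26 promoters, those of Fosb, Fosl2, Dusp6, Btg1 and Klf4 among them, held neither of the full sites in this window. The AP-1 site TGANTCA was found in 1 of 26 (3.85%) and in 6.36% of all, and TATAAA, searched on the coding strand, in 4 of 26 (15.4%) and in 8.38% of all. These matches describe letters in a window and say nothing of binding.

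The 4 libraries held 11829 to 12828 barcodes and 60885664 to 64550637 UMIs (unique molecular identifiers, each the count of a single captured transcript), and 44419 cells were retained. Of all 49168 barcodes, 19 occurred in more than 1 library. Cells were clustered with the 36 genes left out, and clusters were named from marker lists; a name stands for cells like that type by its markers (satellite glia-like and so on). Neurons (10466 cells) and satellite glia, the cells that wrap neuron bodies (8990), were the most numerous named classes, followed by non-myelinating Schwann cells (4625), endothelial cells (3081), myelinating Schwann cells (1678), fibroblasts (928), macrophages (823), smooth muscle cells (548), pericytes (382) and neutrophils (105). A pair of glial clusters near satellite glia stayed unnamed, led by Cdh19 and Col28a1 (3611 cells) and by Inhba and Prrg4 (1633 cells). Early genes were passed over when unnamed clusters were labelled by their leading genes. Egr2 stood between Cdh19 and Col28a1 in the former cluster, and Fosl1 was among the leading genes of the latter. Macrophages were led by the inflammatory genes Cxcl2, Ccl4, Ccl3 and Il1b. Clusters of low UMI count, with 6069 cells nearest to neurons and 607 nearest to non-myelinating Schwann cells, were kept apart and carry no cell type name.

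The early genes made up a large share of all transcripts in every class of non-neuronal cell and a small share in neurons. Their summed UMIs per 10000 UMIs of the neuron class were 19.6, 21.6, 22.6 and 24.3 (Sham 1, Sham 2, CPIP 1, CPIP 2), a mean of 22.04 ± 1.98 (SD, n = 4). In satellite glia they were 225, 237, 227 and 225 in the same order, a mean of 228 ± 5.77 (SD, n = 4). Every library's value in satellite glia thus lay far above every library's value in neurons. Mural cells of the blood vessels stood highest, with means of 354 ± 14.6 in pericytes and 347 ± 24.0 in smooth muscle cells (SD, n = 4 each). They were followed by endothelial cells (311 ± 5.67), non-myelinating Schwann cells (291 ± 16.8), macrophages (265 ± 8.88), fibroblasts (196 ± 29.4), myelinating Schwann cells (181 ± 7.31) and neutrophils (153 ± 17.5), each as SD over 4 libraries. Neighbours in this order whose library ranges overlapped were pericytes and smooth muscle cells, endothelial and non-myelinating Schwann cells, satellite glia and fibroblasts, and fibroblasts and myelinating Schwann cells. The unnamed glial clusters, at 296 ± 15.01 (led by Cdh19) and 288 ± 5.74 (led by Inhba), were above satellite glia in every library. These are levels in classes drawn from the same cells, so no test was made between them.

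**Figure D1:**
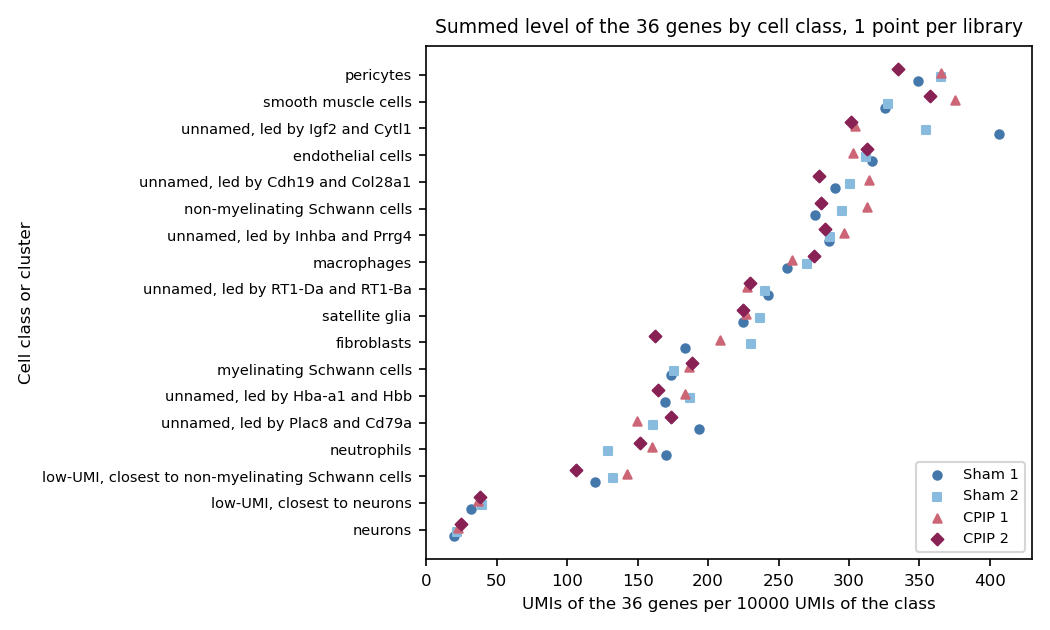
Summed UMIs of the 36 genes per 10000 UMIs of a class (x axis), by cell class or cluster (y axis), with 1 point for each of the 4 libraries. Neurons sit between 19.6 and 24.3, and satellite glia between 225 and 237.

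The AP-1 genes showed the same contrast gene by gene, with levels given as CPM, a gene's UMIs in a class scaled to a common total of UMIs, which are comparable between classes and not between genes. Fosb, a FOS family member induced by repeated stimulation, was at 4449, 4686, 4473 and 3909 CPM in satellite glia and at 129.8, 169.7, 181 and 171 CPM in neurons (Sham 1, Sham 2, CPIP 1 and CPIP 2 here and below). Jun was at 1601, 1770.1, 1540.0 and 1640.4 CPM in satellite glia and at 142, 180.4, 163 and 214 CPM in neurons. Jund, the JUN family member present in resting cells, came closest between the classes, at 2160.1, 2057, 2102 and 1963 CPM in satellite glia and 659.7, 639.9, 681 and 692 CPM in neurons. In none of the 3 did the ranges of the classes overlap. Here and below, the highest and the next class of a gene are taken among the 9 named classes other than neutrophils, without the unnamed clusters. Fos itself was highest in smooth muscle cells (mean 340.2 CPM) and myelinating Schwann cells (334 CPM), whose libraries overlapped, and was at 11.6 CPM in neurons. Fosl2 was at 502 CPM in smooth muscle cells and 446 CPM in pericytes against 33.3 CPM in satellite glia. Fosl1 was the AP-1 gene whose highest mean among these classes was in satellite glia (88.6 CPM, with every library above every library of macrophages at 71.5 CPM). It was also among the leading genes of the unnamed glial cluster led by Inhba and Prrg4.

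Among the EGR genes, Egr1 was at 1707, 1915, 1526 and 1479.8 CPM in satellite glia and at 61.6, 65.3, 75.1 and 77.7 CPM in neurons. Its mean was highest in pericytes, at 3271 CPM, with every library above every library of smooth muscle cells (2469.8 CPM). Among the named classes, Egr2, which drives the myelin programme, was highest in myelinating (1385 CPM) and non-myelinating (1313 CPM) Schwann cells, whose libraries overlapped. Satellite glia followed (848 CPM), against 105 CPM in endothelial cells and 18.8 CPM in neurons. Egr2 was also among the leading genes of the unnamed glial cluster led by Cdh19 and Col28a1, which is not part of this order. Egr3 stayed at 38.4 CPM or below in every named class. Egr4 had 15 to 26 UMIs per library in neurons (mean 0.85 CPM) and 1 to 5 in satellite glia. The orphan nuclear receptors were highest in contractile cells: Nr4a1 (1239.6 CPM), Nr4a2 (1306 CPM) and Nr4a3 (925 CPM) all had their highest mean in smooth muscle cells. For Nr4a2 and Nr4a3 every smooth muscle library was above every library of the next class, which was myelinating Schwann cells for Nr4a2 (816 CPM) and pericytes for Nr4a3 (495 CPM). In neurons the 3 genes had means of 17.4, 14.4 and 7.81 CPM.

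The genes that end the response were unevenly spread. Zfp36, encoding tristetraprolin, was at 1058, 1087, 977 and 959 CPM in satellite glia and at 66.1, 78.0, 83.7 and 87.4 CPM in neurons, and its mean was highest in pericytes (5629 CPM). Zfp36l1, its close relative, was at 1239, 1399, 1357 and 1293 CPM in satellite glia and at 29.1, 42.8, 46.0 and 49.8 CPM in neurons, with its highest mean again in pericytes (5347 CPM). For both genes the satellite glia libraries lay above all neuron libraries, and pericytes overlapped smooth muscle cells. Dusp2, a nuclear MAP kinase phosphatase of immune cells, was highest in macrophages (331 CPM), followed by endothelial cells (139.9 CPM), and had 0 to 8 UMIs per library in satellite glia. Dusp2 was also among the leading genes of an unnamed cluster led by Plac8 and Cd79a, and not among those of macrophages. Dusp6, which switches off ERK, was highest in endothelial cells (345 CPM) and at 26.2 CPM in smooth muscle cells. Btg1, an antiproliferative gene, was at 283, 283, 283 and 276 CPM in satellite glia and 55.3, 64.8, 58.4 and 68.0 CPM in neurons, and Btg2 was at 120.4 CPM in satellite glia against 798 CPM in pericytes.

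The KLF factors and the remaining early genes were divided between vessel, immune and glial cells. Klf2, the shear-stress factor of endothelium, was at 627 CPM in endothelial cells with every library above those of the next class, fibroblasts (302 CPM). Klf4 was at 888, 1033, 953 and 852 CPM in satellite glia, at 27.9, 37.4, 36.9 and 37.0 CPM in neurons, and at 1745 CPM in endothelial cells. Klf6, an early gene of injured tissue, was at 2636, 2689, 2671 and 2718 CPM in satellite glia and 340.0, 378, 393 and 399 CPM in neurons. Its highest mean was in macrophages, at 5832 CPM. Trib1, a pseudokinase that steers protein degradation, had its highest mean in satellite glia, at 1309, 1457, 1577 and 1514 CPM, against 38.6, 43.7, 54.5 and 55.7 CPM in neurons. Every satellite glia library of Trib1 was above every macrophage library (mean 837 CPM). Myc, the growth regulator, was at 1002, 959, 995 and 982 CPM in satellite glia, 74.7, 86.1, 92.5 and 104 CPM in neurons, and highest in non-myelinating Schwann cells (1504 CPM). Mcl1, a survival gene of the BCL2 family, was at 402, 391, 419 and 444 CPM in satellite glia and 72.2, 69.5, 77.2 and 84.7 CPM in neurons, and highest in macrophages (1062 CPM). Ier3, a stress-induced survival gene, was at 241, 248.97, 257 and 244 CPM in satellite glia and 43.1, 48.9, 49.0 and 62.9 CPM in neurons, and highest in endothelial cells (2426 CPM). For the genes given here by library, the satellite glia and neuron libraries did not overlap. The genes given by library in both classes, here and above, were picked for a high level in satellite glia or in neurons. The share of all genes without such overlap was not computed.

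Over the 9 named classes other than neutrophils, 32 of the 36 genes were lowest in neurons, as were 15.7% of all genes with at least 10 UMIs in these classes. Smooth muscle cells held the highest mean of 9 genes, pericytes of 6, endothelial and non-myelinating Schwann cells of 5 each, satellite glia of 4, macrophages of 3, fibroblasts of 2, and myelinating Schwann cells and neurons of 1 each. In 15 of the 36 genes every library of the highest class lay above every library of the next, which held for 32.3% of all genes. The gene highest in neurons was Npas4, the neuron-specific activity factor, with 1 to 2 UMIs per library in neurons and none in satellite glia. Counts this small do not separate the classes. Arc, likewise read as a sign of neuronal firing, was higher in satellite glia (47.9 CPM) than in neurons (1.98 CPM, 47 to 49 UMIs per library).

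**Figure D2:**
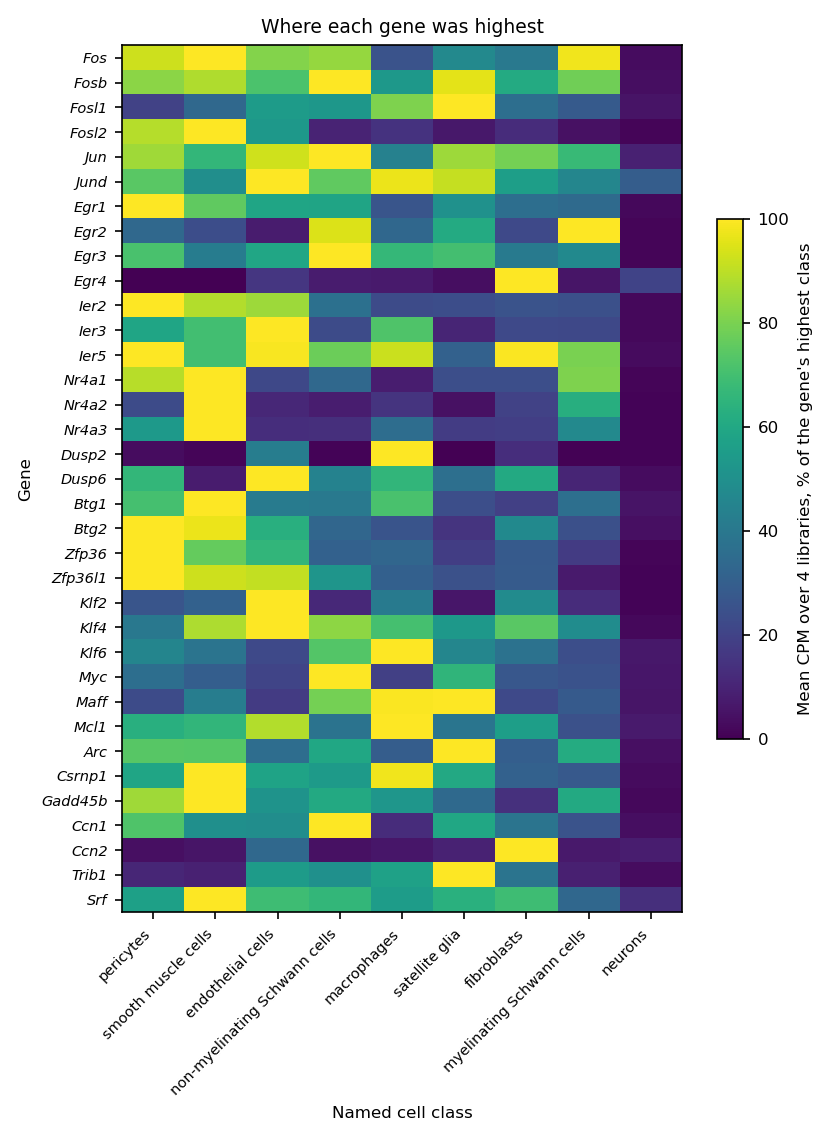
Mean CPM of each gene (rows) in 9 named classes (columns), as a percent of the gene's highest class; Npas4 is left out for its low count. Neurons, the last column, are lowest for 32 of the 36 genes, and the 3 NR4A genes peak in smooth muscle cells.

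Satellite glia were not uniform. Their 2 large clusters differed in the early genes, which had not been used to form them. Cells led by Sox10 and Hey2 (4385 cells) had a summed level of 169 ± 10.2 per 10000 (SD, n = 4), and cells led by Spp1 and the interferon-inducible Gbp5 (4480 cells) had 264 ± 4.78. In 23 of the 36 genes every library of the first cluster lay below every library of the second, in 1 gene above, and in 12 the libraries overlapped. Of all genes with at least 10 UMIs in the pair of clusters, including those that formed them, 8.34% lay below and 18.6% above in this sense. Fosl1 was at 25.3 ± 2.90 CPM in the first and 127 ± 4.91 CPM in the second (SD, n = 4), Trib1 at 713 ± 66.5 against 1916 ± 128 CPM, and Maff, a small MAF factor, at 138 ± 13.4 against 425 ± 53.7 CPM. Egr1 did not follow them, at 1697 ± 276 against 1634 ± 161 CPM, and Zfp36 was the gene that was higher in the first cluster, at 1182 ± 141 against 919 ± 35.6 CPM. The clusters also differed in quality: the median mitochondrial share of UMIs was 15.7% in the first and 13.0% in the second, and the median UMI count was 4486 and 6804. The part of these in the difference was not tested.

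Mitochondrial share and depth moved with the early genes within most classes. Satellite glia in the lowest of 3 equal groups by mitochondrial share (median 11.6%) had 255 ± 7.47 UMIs of the genes per 10000, and those in the highest (median 17.6%) had 171 ± 10.2 (SD, n = 4). The ratio of high to low was 0.65 to 0.70 over the 4 libraries. Ratios below 1 in all 4 libraries were also found in non-myelinating Schwann cells (mean 0.68), smooth muscle cells (0.73), myelinating Schwann cells (0.80) and endothelial cells (0.81), but not in neurons (0.87 to 1.00) or macrophages (0.91 to 1.07). By depth, the deepest group of satellite glia exceeded the shallowest 1.35-fold on average, of endothelial cells 1.29-fold and of neurons 1.25-fold. In non-myelinating Schwann cells and macrophages the direction was the opposite, with mean ratios of 0.69 and 0.54. The part that cell damage, free RNA or cell subtype has in these gradients was not tested.

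The spread between cells was compared after thinning each cell to 1000 UMIs, which left out 206 satellite glia, 451 neurons, 797 non-myelinating Schwann cells and 183 pericytes. A satellite glial cell then held UMIs of 9.57 ± 0.24 of the genes and a neuron of 1.63 ± 0.13 (SD, n = 4 libraries). Fosb had a UMI in 80.1% of thinned satellite glia and 11.6% of thinned neurons, and in 88.1% and 40.8% without thinning, at median depths of 5675 and 5847 UMIs. No class is known to lack Fosb, so no share can be taken as background. In satellite glia the middle 80% of cells in Sham 1 ran from 2 to 37 UMIs of the genes, and in the 4 libraries 1.68% to 2.40% of cells had none. In neurons 18.8% to 25.6% had none.

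Variation between cells was set beside that of all genes of the class. The variance of a thinned count over its mean, which is 1 for pure counting noise, had a median of 1.299 over the early genes above a mean of 0.05 UMIs in satellite glia and of 1.02 over all genes above that mean. Of the 27 early genes above that mean in each library of satellite glia, 11 to 12 exceeded 1.5, against 2.03% to 2.47% of all genes. In myelinating Schwann cells, 25 to 27 early genes per library were above that mean and 15 to 18 exceeded 1.5, with 4.28% to 5.12% of all genes, and the median was 1.84. In neurons only 8 to 12 early genes per library were above that mean. Their median was 1.16 against 1.03 for all genes, and at most 1 of them exceeded 1.5. Fosb reached 3.34, Egr1 2.62 and Zfp36 2.46 in satellite glia. The ratio tends to grow with a gene's level, and levels were not matched.

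**Figure D3:**
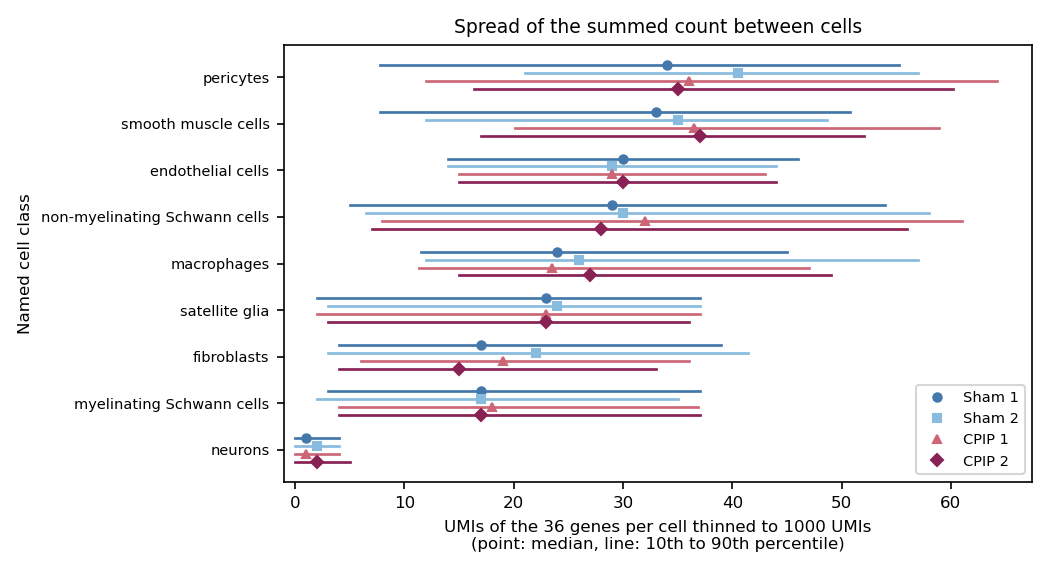
UMIs of the 36 genes per cell thinned to 1000 UMIs (x axis) in 9 named classes (y axis); a point is the median of a library and a line runs from its 10th to its 90th percentile. Satellite glia of Sham 1 run from 2 to 37, and neurons stay at 5 or below at the 90th percentile.

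In satellite glia some of the genes tended to be high in the same cells. Among 24 genes detected in at least 10% of thinned cells of every library, the pair with the highest Pearson correlation over cells was Fosb and Klf6 (mean r 0.50, 0.45 to 0.55 over the 4 libraries), followed by Fosb and Egr1 (0.47), Fosb and Jund (0.47) and Fosb and Jun (0.45). Of 276 pairs, 50 had a mean r above 0.2, and the median pair was at 0.09. The share of pairs above 0.2 among all genes of like detection was not computed, so these counts are not set apart from other genes. Trib1 was paired most closely with Jund (0.35), Fosb (0.34) and Klf6 (0.28), and its value against Zfp36 was the lowest of all pairs (-0.04). In neurons 3 genes, Jun, Jund and Klf6, passed the detection limit, and their pairs had r of 0.05 to 0.06. These correlations share each cell's thinned depth, its class mixture and its free RNA, and are a description.

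Outside the set, the genes closest to the summed early-gene count over satellite glial cells included chemokine and interferon-regulated genes. Of 1458 genes compared, those with the highest mean correlation included Cxcl10 (r 0.55, 0.54 to 0.59 over the libraries), Ccl2 (0.51), Igtp (0.46), Ifrd1 (0.45), Irf1 (0.35), B2m (0.34), Sod2 (0.33), Phlda1 (0.33) and Idi1 (0.33). Cxcl10 and Ccl2 encode chemokines, Igtp, Irf1 and B2m are interferon-regulated genes, and Irf1 belongs to the list of other dissociation genes used here. In neurons the values were lower: of 1557 genes, Sparc (0.28), Dbi (0.24), Cst3 (0.20), Ccl2 (0.18), Scg2 (0.18), Adcyap1 (0.17), Vim (0.17), Calca (0.17), Sat1 (0.16) and Cnn3 (0.14) stood first. Sparc, Dbi, Cst3 and Vim are abundant in glia, whereas Scg2, Adcyap1 and Calca are neuropeptide genes.

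The neuron values have to be read beside the glial RNA measured in the same cells. Fabp7, a defining gene of satellite glia, was found in neurons at 1.62% of its satellite glia level, Kcnj10 at 1.79%, Ednrb at 1.47% and Apoe at 2.98%. The median over 13 listed satellite glia markers was 2.15%, with higher values for markers that neurons also express, up to 86.9% for the adhesion gene Cadm1. Kcnj3 was left out of this median, as its level in satellite glia was 0.36 CPM. Over the 32 early genes with at least 10 CPM in satellite glia, the level in neurons was a median of 7.51% of that in satellite glia. Egr3 (2.08%) and Egr2 (2.23%) lay within the range of Fabp7, Kcnj10, Ednrb and Apoe, so level alone does not tell their UMIs in neurons from glial RNA. In neurons without any UMI of 5 glial markers (described below), Egr2 was at 4.45, 4.69, 6.77 and 6.25 CPM. Egr3 was at 0.06, 0.08, 0.24 and 0.75 CPM there. Whether these UMIs are neuronal was not tested. Jund, at 32.3%, Btg2 (26.1%), Nr4a2 (23.7%) and Srf (20.9%) lay well above the range of those 4 glial genes. Among neurons, those led by Adcyap1 and Cartpt (1632 cells) had 30.7 ± 3.01 UMIs of the genes per 10000 and those led by Iapp and Kcnip1 (3677 cells) had 13.9 ± 1.52 (SD, n = 4). In 25 of the 36 genes every library of the first cluster was above every library of the second, and in 11 they overlapped. Of all genes with at least 10 UMIs in these clusters, 25.1% were above and 16.5% below in this sense. Btg2 was at 72.6 ± 7.58 CPM against 10.5 ± 2.05 CPM (SD, n = 4), and Zfp36 at 142 ± 20.3 against 29.0 ± 7.82 CPM.

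The comparison of CPIP with sham asks whether the early genes differ between the groups in each class. It was made on UMI counts summed per library and class, with the quasi-likelihood test of edgeR, and a gene was called at a Benjamini-Hochberg adjusted p under 0.05 over all genes tested in the class. In 7 classes no early gene was called, by edgeR or by DESeq2. Almost nothing else was called either: 0% of the genes tested in neurons, satellite glia, myelinating Schwann cells, macrophages and smooth muscle cells, and 0.0101% in non-myelinating Schwann cells and in endothelial cells. The gene called in both of these was Rpl10a-ps9, a ribosomal protein pseudogene. It was at 1.305, 1.20, 26.6 and 43.4 CPM in non-myelinating Schwann cells, and at 2.16, 0.69, 39.4 and 64.0 CPM in endothelial cells (log2 change 4.75 ± 0.43 and 5.15 ± 0.43 SE, edgeR adjusted p 0.0228 and 0.00806). Reads of a pseudogene may be shared with its parent gene, so its value is uncertain. At an unadjusted p under 0.05 there were 9 early genes among the 35 tested in neurons and 6 among the 29 tested in smooth muscle cells. The numbers were 5 in non-myelinating Schwann cells (33 tested), 5 in endothelial cells (34), 5 in myelinating Schwann cells (32), 3 in satellite glia (33) and 3 in macrophages (32). Over all genes tested, that share was 3.65% in neurons, 3.44% in satellite glia, 4.53% and 4.47% in non-myelinating Schwann and endothelial cells, 4.82% in myelinating Schwann cells, 5.36% in macrophages and 5.38% in smooth muscle cells.

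The values leaned toward CPIP in neurons and smooth muscle cells. In neurons 31 of the 35 genes tested had a positive log2 change (CPIP over Sham), with a median of 0.24, against 51.3% of all genes and a median of 0.01. Both CPIP libraries were above both Sham libraries in 21 of the 35 (16.3% of all genes tested), and below in 2 (16%). The median was 0.14 without Sham 1, 0.38 without Sham 2, 0.29 without CPIP 1 and 0.15 without CPIP 2. The highest value was that of Egr3 (1.13 ± 0.55 SE), at 0.19, 0.52, 0.62 and 0.94 CPM, a level that alone does not tell it from glial RNA, as given above. In smooth muscle cells 23 of 29 were positive, with a median of 0.15, and CPIP was above Sham in 18 (17% of all genes) and below in 1 (16.9%). In satellite glia 17 of 33 were positive, with a median of 0.01, and CPIP was above in 8 (15.5%) and below in 4 (16.6%). In non-myelinating Schwann cells 22 of 33 were positive, with CPIP above in 10 (16.6%) and below in 2 (17.5%). In endothelial cells 16 of 34 were positive, with CPIP above in 8 (17.1%) and below in 8 (16.8%). In myelinating Schwann cells 21 of 32 were positive, with CPIP above in 12 (17%) and below in 2 (16.5%), and in macrophages 17 of 32, with CPIP above in 6 (17.1%) and below in 5 (17.9%). The genes of a library share its cells and its depth, so these counts do not stand for that many separate observations.

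**Figure D4:**
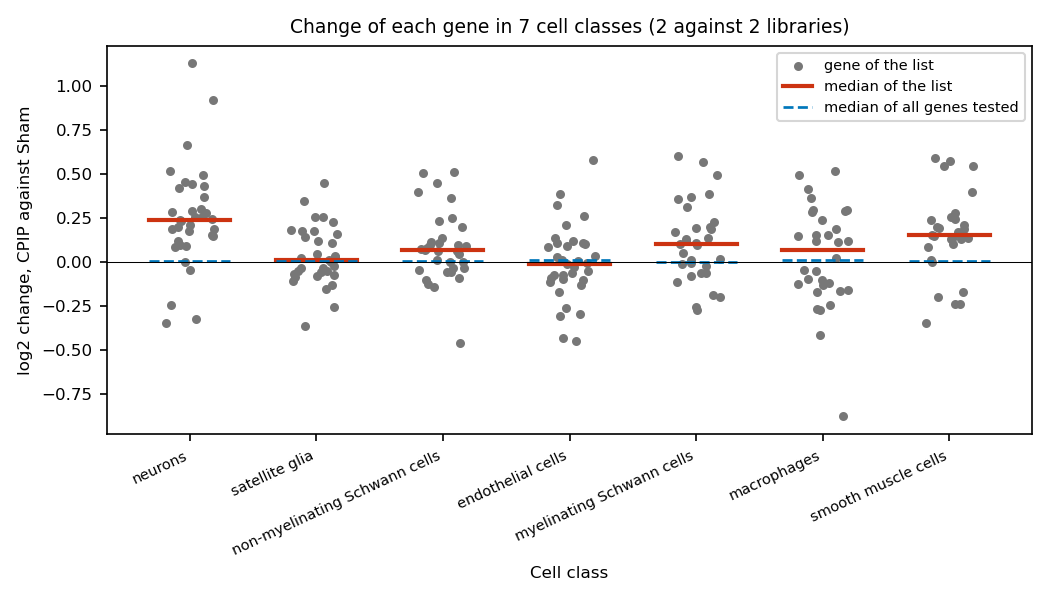
Log2 change of CPIP over Sham (y axis) for each early gene tested in 7 cell classes (x axis); red lines mark the median of the set and dashed blue lines the median of all genes tested. The set's median is 0.24 in neurons, 0.15 in smooth muscle cells and 0.01 in satellite glia.

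The genes nearest the threshold differed by class, and values are CPM scaled by TMM. In neurons, Trib1 was at 38.6, 43.5, 54.9 and 55.7 CPM, so that both CPIP libraries were higher, with a log2 change of 0.43 ± 0.10 SE (edgeR adjusted p 0.979). Nr4a3 was at 5.23, 6.86, 9.13 and 10.0 CPM in neurons, again without overlap (0.67 ± 0.19, edgeR adjusted p 0.979). Csrnp1, an AXIN-induced nuclear protein, was at 19.4, 23.9, 30.2 and 51.7 CPM in neurons (0.92 ± 0.26, edgeR adjusted p 0.979), and CPIP 2 stood far above the other libraries. In satellite glia the 3 genes with the smallest p were Srf, Egr3 and Egr1. Srf was at 146, 148, 167 and 183 CPM (0.26 ± 0.08) and Egr3 at 25.02, 22.5, 31.1 and 29.2 CPM (0.34 ± 0.11), with CPIP above Sham in both. Egr1 was at 1684, 1924, 1540.2 and 1485 CPM (-0.25 ± 0.09), with CPIP below Sham, and the change was -0.15 without Sham 2. The edgeR adjusted p was 0.969 for all 3.

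In non-myelinating Schwann cells Trib1 was at 581, 638, 888 and 849 CPM (0.51 ± 0.10 SE) and Ccn1, a matricellular target of SRF, at 204, 210.03, 278 and 287 CPM (0.45 ± 0.10). Both genes were higher in the CPIP libraries without overlap, and the edgeR adjusted p was 0.948. Dusp6 was at 163, 193, 129 and 130.4 CPM there (-0.46 ± 0.12, edgeR adjusted p 0.948), lower in both CPIP libraries. Dusp6 had the same order in macrophages, at 282, 336, 171 and 164 CPM (-0.88 ± 0.20, edgeR adjusted p 0.606), and in endothelial cells, at 378, 378, 312 and 319 CPM (-0.26 ± 0.10, edgeR adjusted p 0.960). Over the 6 classes in which Dusp6 was tested its log2 change was negative in 5, and CPIP lay below Sham in 4. The classes come from the same 4 libraries and are not independent of each other. Also in endothelial cells, Dusp2 was at 152, 171, 121 and 118 CPM (-0.44 ± 0.11) and Fosl1 at 52.9, 60.0, 39.7 and 42.8 CPM (-0.45 ± 0.15), both lower in CPIP without overlap and both at an edgeR adjusted p of 0.960.

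In myelinating Schwann cells Nr4a3 was at 409, 293, 554 and 524 CPM (0.60 ± 0.14 SE), Csrnp1 at 261, 261, 295 and 480.4 CPM (0.57 ± 0.19) and Mcl1 at 225, 247, 323 and 282 CPM (0.37 ± 0.14). CPIP was above Sham in all 3, and the edgeR adjusted p was 0.982. The change of Csrnp1 rested on CPIP 2: it was 0.18 without that library and 0.89 without CPIP 1. In macrophages Zfp36l1 was at 1519.6, 1525, 1848 and 2073 CPM (0.37 ± 0.14, edgeR adjusted p 0.888), and Nr4a2 at 199, 143, 266 and 229.8 CPM (0.51 ± 0.22, edgeR adjusted p 0.891), with CPIP above Sham in both. The change of Nr4a2 was 0.79 without Sham 1 and 0.33 without Sham 2. In smooth muscle cells Nr4a3 was at 793, 852, 1268 and 1138 CPM (0.54 ± 0.14), Fosl2 at 442, 454, 615 and 689 CPM (0.54 ± 0.16) and Fos at 305, 293, 385 and 508 CPM (0.59 ± 0.19). CPIP was again above Sham, with an edgeR adjusted p of 0.756 for each, and the change of Fos was 0.38 without CPIP 2. Mcl1 had a positive log2 change in 7 of 7 classes (0.11 to 0.40) with CPIP above Sham in 6. Csrnp1 was positive in 7 of 7 (0.39 to 0.92) with CPIP above Sham in 4, and Klf6 in 7 of 7 (0.01 to 0.17) with CPIP above in 3. Fos was likewise positive in 7 of 7 (0.09 to 0.59), with CPIP above in 1. The classes share the same libraries, and the share of all genes positive in every class was not computed.

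The calls changed when a CPIP library was left out. With CPIP 1 left out, which sets CPIP 2 alone against the Sham libraries and assumes that it varies as they do, 6.38% of genes were called in neurons, 3.81% in satellite glia, 3.62% in non-myelinating Schwann cells, 3.16% in endothelial cells, 1.26% in myelinating Schwann cells, 1.65% in macrophages and 0.879% in smooth muscle cells. Early genes were then called in numbers of 8, 2, 4, 5, 3, 2 and 1 in the same order. Csrnp1 was among them in all 7 classes, with log2 changes from 0.70 (endothelial cells) to 1.25 (neurons) and edgeR adjusted p between 2.18e-07 and 0.00116. In neurons the others were Jun (0.41), Nr4a3 (0.73), Trib1 (0.44), Myc (0.38), Srf (0.40), Ier2 (0.71) and Ier3 (0.45). Fos was called in satellite glia (0.49), endothelial cells (0.49) and myelinating Schwann cells (0.80), Dusp6 in non-myelinating Schwann cells (-0.45) and macrophages (-0.90), and Ccn2 in endothelial cells (1.00). With CPIP 2 left out instead, 0.652% of genes were called in neurons and no early gene, and the log2 change of Csrnp1 in neurons was 0.48.

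A few calls did not need CPIP 2. With CPIP 2 left out, Trib1 was called in non-myelinating Schwann cells (log2 change 0.54, edgeR adjusted p 0.00182, with 0.628% of genes called), Nr4a3 in myelinating Schwann cells (0.64, edgeR adjusted p 0.0103, with 0.138% called) and Zfp36l1 in smooth muscle cells (0.33, edgeR adjusted p 0.0206, with 0.227% called). With Sham 1 left out, a fit that keeps CPIP 2, Nr4a3 was also called in myelinating Schwann cells (log2 change 0.89). With Sham 2 left out no early gene was called in any of the 7 classes. Each of these fits sets a single library against 2 and assumes that it varies as they do.

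Glial RNA in neurons differed between libraries. The share of neurons with no UMI of 5 satellite glia markers (Fabp7, Kcnj10, Ednrb, Fbln5 and Apoe) was 72.0%, 62.4%, 64.6% and 55.8% in Sham 1, Sham 2, CPIP 1 and CPIP 2, with median depths of 4974 to 5501 UMIs in those cells and 7330 to 7587 in the rest. It was highest in Sham 1 and lowest in CPIP 2, and the groups overlapped. Of the 14 satellite glia markers, 11 had the higher mean in CPIP neurons, 5 without overlap, and 2 were lower without overlap, while their sum was 33.0, 32.5, 32.6 and 29.5 per 10000. None of the 14 was at 0. In neurons without those UMIs the early genes stood at 15.3, 16.5, 15.96 and 17.1 per 10000, which overlap between the groups. In neurons with them they stood at 26.8, 26.9, 29.8 and 29.4, with CPIP above Sham. Fitted in neurons without those UMIs, 26 of 34 early genes were positive, the median was 0.09, and CPIP was above Sham in 8 (15.2% of all genes) and below in 3 (15.4%). None was called by edgeR, and 2 had an unadjusted p under 0.05. Trib1 had a log2 change of 0.09 there in place of 0.43 over all neurons, Csrnp1 0.65 in place of 0.92 and Nr4a3 0.58 in place of 0.67. The part of glial RNA in the change over all neurons was not tested beyond these values.

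**Figure D5:**
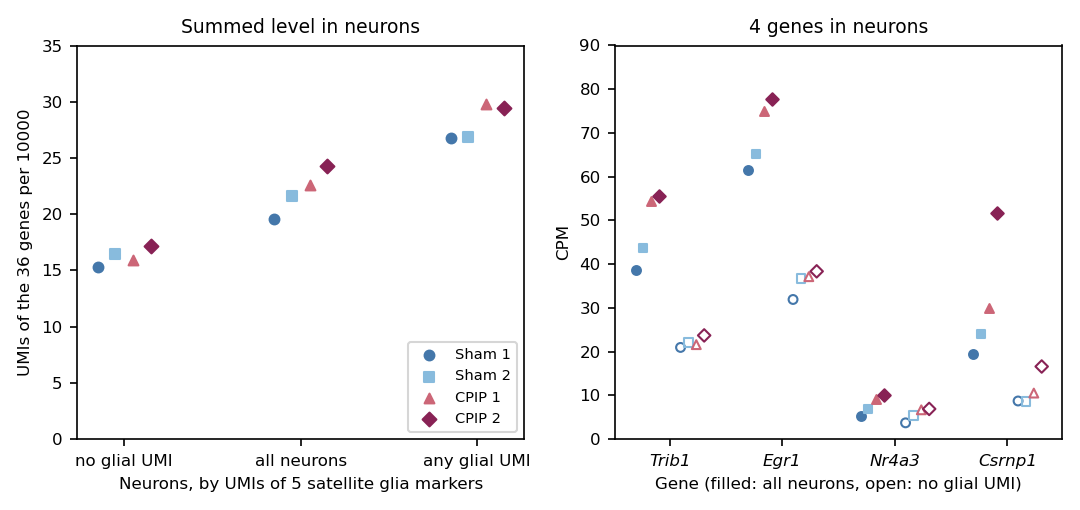
Left, summed UMIs of the 36 genes per 10000 (y axis) in neurons without any UMI of 5 satellite glia markers, in all neurons and in neurons with such UMIs (x axis), 1 point per library. Right, CPM (without TMM scaling) of the 4 genes with the smallest p in neurons, filled for all neurons and open for those without glial UMIs. Trib1 separates the groups in all neurons and not in the open points, whereas Egr1, Nr4a3 and Csrnp1 still separate them in the open points.

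Whether the change in neurons differed from that in satellite glia was tested with library as a term, a test added after the values had been seen. Over 13993 genes, 0.15% were called, and no early gene was. The smallest edgeR adjusted p was that of Egr1 (0.0660), which was higher in CPIP neurons and lower in CPIP satellite glia, with a difference of 0.52 ± 0.11 (log2, SE). Ier2 (0.50 ± 0.12, edgeR adjusted p 0.133), Egr2 (0.50 ± 0.13, edgeR adjusted p 0.199) and Csrnp1 (0.45 ± 0.11, edgeR adjusted p 0.202) followed.

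Genes upstream and downstream of the set were read from the same fits. Of 45 other genes of the dissociation response, such as heat shock genes and Atf3, no gene was called in any of the 7 classes. They leaned the same way as the early genes in neurons, where 31 of 40 tested were positive (median log2 change 0.18) and 10 had an unadjusted p under 0.05. In non-myelinating Schwann cells 32 of 37 were positive (median 0.15), in macrophages 33 of 41 (0.15), in endothelial cells 31 of 39 (0.11), in myelinating Schwann cells 27 of 35 (0.12), in smooth muscle cells 22 of 33 (0.10) and in satellite glia 28 of 39 (0.07). An unadjusted p under 0.05 (edgeR) was found for 6, 4, 4, 3, 4 and 2 of them in this order. Over all genes tested, 50.1% to 51.8% were positive. The early genes, by contrast, were positive in 16 of 34 in endothelial cells and 17 of 33 in satellite glia. Of 28 upstream genes, which encode the kinases and the factors such as CREB and the SRF partners that act on these promoters, 10 of 24 were positive in neurons (median -0.02), 15 of 22 in satellite glia (0.10) and 11 of 15 in smooth muscle cells (0.27), with none called in any of the 7 classes. Of 16 later activity-induced genes, such as Bdnf and Vgf, 9 of 14 were positive in neurons (median 0.05) and 7 of 15 in satellite glia (-0.04), with none called in any of the 7 classes.

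Markers of other cell types also moved with the groups in some classes. In neurons the 12 fibroblast markers summed to 0.82, 0.85, 0.97 and 1.24 per 10000, with CPIP above Sham in the sum and in 8 of the markers, and below in 2; none was at 0. The 13 markers of non-myelinating Schwann cells summed to 16.9, 16.6, 15.4 and 16.4 in neurons, with CPIP below. Cycling-cell markers had CPIP above Sham in neurons, at 0.191, 0.192, 0.192 and 0.23 with CPIP 2 alone apart, and in non-myelinating Schwann cells, at 0.33, 0.34, 0.42 and 0.41. In macrophages the 14 satellite glia markers summed to 52.8, 45.9, 38.7 and 39.3 per 10000, with CPIP below Sham, and 6 of them lay below without overlap and none above. In endothelial cells the same markers summed to 59.6, 57.3, 53.0 and 54.2, again with CPIP below. In smooth muscle cells the 8 pericyte markers summed to 9.74, 9.41, 12.1 and 14.0 per 10000 and the 14 macrophage markers to 0.32, 0.26, 0.69 and 0.94, both with CPIP above. Of the macrophage markers, 6 were at 0 in all 4 libraries of smooth muscle cells (C1qa, C1qb, Aif1, Cd163, Cx3cr1 and Tyrobp). The 10 markers of cycling cells summed to 0.39, 0.49, 1.96 and 0.98 there, with CPIP above. In this small class the macrophage and cycling-cell sums rest on few UMIs per library. The part of all these markers in the early-gene values of the classes was not tested.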

How the data were processed

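Dissociated L4-L6 ganglion cells were captured with the BD Rhapsody whole-transcriptome assay, per the labels' protocols. Each deposited matrix holds whole-number UMI counts for every gene and barcode, per the file headers. The aligner, the build and the way barcodes were called as cells are not given in these sources. Among the 25629 features, 3852 lacked a symbol and 211 symbols named more than 1 feature.

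A barcode needed 200 genes and at most 25% mitochondrial UMIs to be kept, after which the 5% of cells in each library scoring highest for doublets (549 to 585) were removed, by their share of simulated doublets (2 per cell) among nearest neighbours. Counts scaled to 10000 and log-transformed were clustered on 2000 variable genes without the early genes, 30 principal components, 15 neighbours (Jaccard weights) and the Leiden method at resolution 1.0 (igraph 0.11.9, scanpy 1.11.5, Python 3.11.15). Names came from 165 of 171 marker symbols found. The margin of 0.3 over the next class was set after the clusters were seen. It left clusters led by Hba-a1 and Hbb (0.79% of Sham and 0.89% of CPIP cells), Plac8 and Cd79a (0.40% and 0.60%) and Igf2 and Cytl1 (0.48% and 0.25%) unnamed.

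UMI counts summed per library and class were compared, in classes with at least 100 cells in each library, with edgeR 4.0.16 (R 4.3.3; TMM, default low-count filter, Benjamini-Hochberg over all genes of the class), after a check on simulated counts. DESeq2 1.42.0, other size factors, no filter, a replicate block, left-out libraries, a 15% mitochondrial limit, kept doublets and clustering with the early genes were alternatives. Named genes are the 10 with the highest mean CPM in satellite glia and in neurons, the 3 with the smallest p per class, called genes, and the 10 nearest genes in correlation, of which 1 is not reported here; genes given by class peaks and group orders were picked after their values were seen. The genes and lists were chosen with earlier results of these data known. Same-numbered libraries shared only a number. Counts give depth and precision; SDs are over 4 libraries, or SEs from the fit.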

Additional observations from a re-analysis of the deposited data

Results flagged for a closer look

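In 5 early genes among those nearest the threshold, both CPIP libraries were above both Sham libraries in 1 class and below them in another. Either order was seen in 15.5% to 17.9% of all genes tested in a class, and none of these differences was tested. Ccn1 had a log2 change of 0.52 in neurons and -0.27 in myelinating Schwann cells, a difference of 0.79. Egr1 was at 0.28 in neurons and -0.26 in myelinating Schwann cells, a difference of 0.53. Fosl1 was at 0.50 in myelinating Schwann cells and -0.45 in endothelial cells, a difference of 0.95. Nr4a2, an orphan nuclear receptor, was at 0.51 in macrophages and -0.29 in endothelial cells, a difference of 0.81. Nr4a3 was at 0.67 in neurons and -0.41 in macrophages, a difference of 1.08.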

How the results depend on the processing

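The direction of all 21 named gene results was kept in every alternative run, and 18 of their values passed the threshold that the reported one had not while 222 kept its side. The crossed block gave 1 of the 18 (Dusp6 in macrophages) and left-out libraries gave the others, except that without the low-count filter they were Trib1 and Ccn1 in non-myelinating Schwann cells and Nr4a3 and Csrnp1 in myelinating Schwann cells. Called genes numbered 0 with the filter and 1 without it in neurons, 0 and 13 in satellite glia, 1 and 106 in non-myelinating Schwann cells (3 early genes), 0 and 29 in myelinating Schwann cells (2 early genes), 0 and 34 in macrophages and 0 and 5 in smooth muscle cells; the cause was not tested. DESeq2 called 9 genes in neurons and 6 in satellite glia. The 15% mitochondrial limit, kept doublets and neurons without glial UMIs each gave 1 call in neurons, and clustering with the early genes 3 in non-myelinating Schwann cells. With 1 library left out, calls ranged from 0 to 898 in neurons, 0 to 472 in satellite glia, 0 to 372 in non-myelinating Schwann cells, 0 to 331 in endothelial cells, 10 to 92 in myelinating Schwann cells, 0 to 97 in macrophages and 0 to 43 in smooth muscle cells, highest without CPIP 1 in each. Early genes called then ranged from 0 to 8, 0 to 2, 0 to 4, 0 to 5, 0 to 3, 0 to 2 and 0 to 1. The median change ranged from 0.082 to 0.15 in myelinating Schwann cells (0.16 under the 15% limit) and from -0.061 to 0.10 in macrophages.

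Same-numbered libraries deviated with correlations of -0.15 to -0.05 over genes, so the replicate number gave no pairing; with it as a block 1 gene was called in neurons and in satellite glia, 3 in each Schwann class and in endothelial cells, 18 in macrophages and 5 in smooth muscle cells, and no early gene. In macrophages a crossed block, added after seeing the data, gave 62 calls, 1 of them an early gene.

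The 15% limit raised the summed level to 319.5 per 10000 in endothelial cells, 196 in myelinating and 314 in non-myelinating Schwann cells, 379 in pericytes, 252 in satellite glia and 374 in smooth muscle cells. Kept doublets gave 301 in endothelial cells and 25.3 in neurons. Clustering with the early genes gave 373 in non-myelinating Schwann cells and 239 in satellite glia. Early genes detected per cell, thinned to 2000 UMIs, were by construction more, at 17.2 in endothelial cells, 13.6 in fibroblasts and in macrophages, 12.3 in myelinating and 14.3 in non-myelinating Schwann cells, 2.85 in neurons, 13.1 in satellite glia and 17.5 in smooth muscle cells; under the 15% limit they were 12.7 in endothelial cells, 9.24 and 11.9 in the Schwann classes, and 10.99 in satellite glia. Classes of few cells are limited by depth: early genes tested numbered 35 in neurons and 29 in smooth muscle cells.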
